A study of Mus musculus with 6 samples.

Results

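Proteoglycan core proteins and the enzymes that build and sulfate their sugar chains were examined in sorted bladder cells of newborn mice. Members were all probe sets with a single platform gene symbol that named a carbohydrate sulfotransferase (Chst), a heparan sulfate sulfotransferase (Hs2st, Hs3st, Hs6st, Ndst), a syndecan (Sdc), a glypican (Gpc), a hyaluronan synthase (Has), an exostosin (Ext, Extl) or 1 of 10 matrix and membrane core proteins (Dcn, Bgn, Lum, Fmod, Ogn, Vcan, Acan, Hspg2, Agrn and Cspg4). This gave 112 of 45037 probe sets, for 55 of 18193 genes. The 3 probe sets that carried a member's symbol together with a further gene's were left out. All samples came from male FVB/N mice at postnatal day 2 (Theiler stage 27) that carried EGFP under the smooth muscle gamma actin (SMGA) promoter and EYFP under the smooth muscle alpha actin (SMAA) promoter. Cells with EGFP and no EYFP (single-positive, 3 arrays) make up 1 group, cells with EGFP and EYFP (double-positive, 3 arrays) make up the other, and both are labelled as detrusor, the muscle of the bladder wall. The EGFP transgene was therefore active in both groups, and the groups differ by EYFP alone as sorted. Samples were not pooled per the labels, which do not say that arrays of a group came from different animals, and a p-value here therefore reflects the spread of these samples alone, which may be technical.

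Proteoglycans are core proteins with long sulfated sugar chains attached. Small leucine-rich core proteins sit on collagen fibrils, syndecans and glypicans hold heparan sulfate at the cell surface, and versican, perlecan and agrin carry chains in the matrix or the basement membrane. Exostosins polymerise the heparan sulfate backbone, and sulfotransferases then add sulfate at set positions of each sugar, which sets how growth factors of the FGF, Wnt, Hedgehog and BMP families bind to the chain. Hyaluronan, which has no core protein and no sulfate, is made at the plasma membrane by the Has enzymes. In the bladder wall proteoglycans and hyaluronan are part of the matrix between muscle bundles and of the lamina propria under the epithelium.

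Signal intensities are in arbitrary units, 1 value per probe set and array, and the median signal ranged from 147 to 199.8 over the 6 arrays. Across all 45037 probe sets, which are no independent replicates, the log2 signals had a Pearson's r of 0.921 to 0.942 between arrays of different groups and 0.935 to 0.956 within groups. Actg2, the endogenous gene of the SMGA reporter, fell in the double-positive arrays (log2 fold change -2.54, SE 0.22 in limma, adjusted p = 0.000246), while Acta2, that of the SMAA reporter, had -0.07 (adjusted p = 0.904) on its brightest probe set. All 10 fibroblast markers were tested in limma and 0 passed in either direction, with an unadjusted p under 0.05 for 3 of them. The share of all genes with an unadjusted p under 0.05 was not computed. Such counts, here and for the lists below, can therefore not be read as an excess. Their summed signal was 342833 to 420767 in single-positive and 342555 to 458652 in double-positive arrays. Of 12 visceral smooth muscle markers 10 fell, with sums of 298783 to 383881 against 106098 to 148679. Leukocyte markers fell for 15 of 16 tested (sums of 97870.3 to 139192 against 13113 to 21920.6), endothelial markers for 8 of 15 (46667 to 54727 against 12509 to 18609), urothelial markers for 9 of 15 (29555 to 49318 against 5441 to 9671) and pericyte and vascular mural markers for 3 of 8 (54445 to 60276 against 24616 to 45754). In the same order, mast cell markers had sums of 2679 to 3406 against 577 to 1395 (3 of 4 tested fell, and Hdc rose), and nerve and Schwann cell markers 11463 to 15198 against 1408 to 2756 (4 of 8 fell). The mesothelial sum of 7847 to 10990.5 against 1399 to 4936 is mainly that of Krt8 and Krt19, which are also on the urothelial list and are the 2 of 4 that fell. Wt1 and Upk3b, more specific to mesothelium, had log2 fold changes of 0.22 and 0.12 and did not pass. Leukocyte Cd52, mast cell Mcpt4, Tpsb2, Fcer1a and Ms4a2, mesothelial Msln and Lrrn4, and neuronal Tubb3 were below the filter on dim genes in these arrays. Fewer cells of a type and less RNA per cell cannot be told apart in such samples, and the part of these cells in the results for members was not tested.

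**Figure D1:**
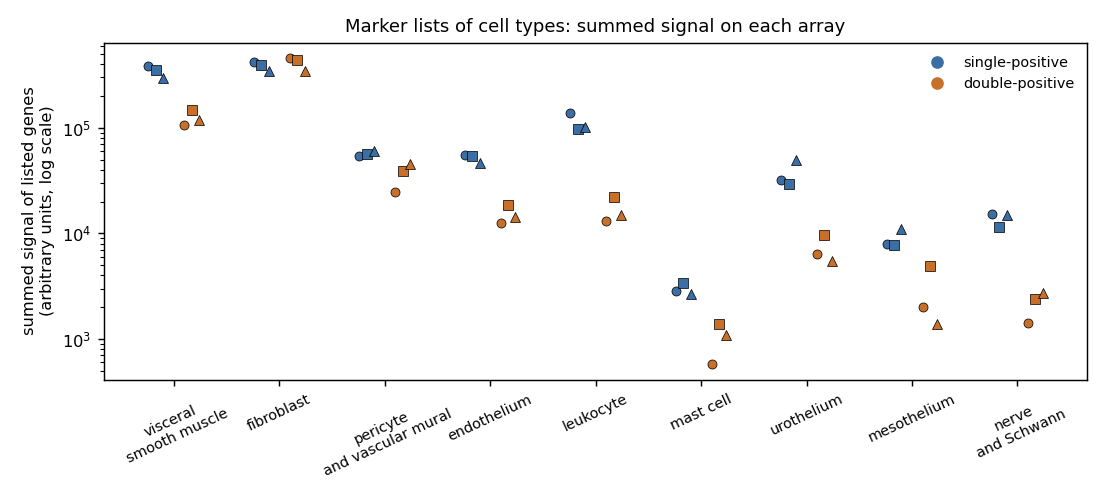
Summed signal (arbitrary units, log axis) of the genes of each marker list on each array, with circles, squares and triangles for replicates 1, 2 and 3. Fibroblast sums overlap between the groups, and the sums of the other 8 lists are lower in all 3 double-positive arrays, where the mesothelial sum is mainly Krt8 and Krt19, shared with the urothelial list.

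Among proteoglycans and their enzymes, 5 genes were higher and 1 was lower in the double-positive cells, and 5 of these 6 encode sulfotransferases. The 3-O-sulfotransferase Hs3st1, the sulfotransferases Chst2, Chst8 and Chst11 and the core protein Sdc2 (syndecan 2) rose in the double-positive arrays, with log2 fold changes of 1.13 to 2.52, and the 6-O-sulfotransferase Hs6st2 fell by 1.91. These 6 were the members past the threshold, an adjusted p of 0.05 over all genes tested, among 45 that passed a filter on low values. Chst8 passed that filter only through its double-positive arrays. With the filter at the 60th percentile, where Chst8 was not tested, 5 members passed, 4 higher and 1 lower. When the probe sets of each gene were averaged, 3 members passed, all higher (Sdc2, Hs3st1 and Chst8). The other 39 tested members did not pass, and 10 member genes were below the filter (Gpc5, Ndst3, Ndst4, Hs3st3a1, Hs3st4, Hs6st3, Chst3, Chst4, Chst9 and Chst13). Over all 13464 genes tested 6.37% passed, 1.98% higher and 4.38% lower, against 13.3% of the tested members. Groups did not overlap for 12 of the 45 members (26.7%) and for 22.4% of all genes tested. The median log2 fold change was 0.07 over the tested members and 0.02 over all genes, and the median of its size was 0.25 and 0.32. Positive fold changes mean a higher double-positive signal, on the scale log2(signal + 25.04), which understates the change of dim genes.

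**Figure D2:**
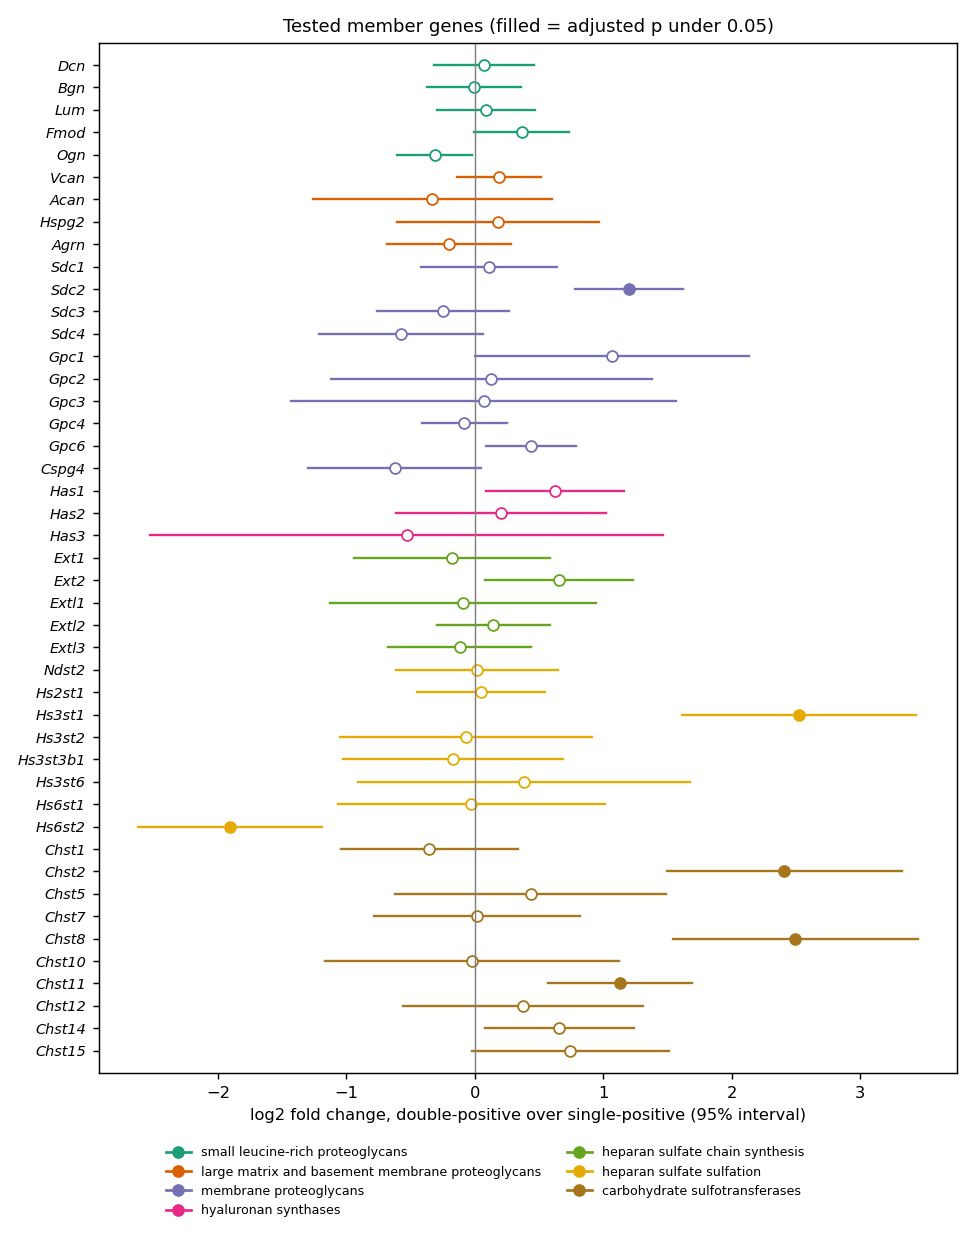
Log2 fold change (double-positive over single-positive) of the 45 tested member genes with 95% intervals of the moderated fit, coloured by role, where filled points have an adjusted p under 0.05. The 5 filled points on the right are Sdc2, Hs3st1, Chst2, Chst8 and Chst11, the filled point on the left is Hs6st2, and the core proteins of the matrix lie close to 0.

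Hs3st1 adds the rare 3-O-sulfate that forms the antithrombin binding site of heparan sulfate. Its signal was 388, 209.6 and 562 in single-positive arrays 1, 2 and 3 and 2754, 2410.4 and 1572 in double-positive arrays 1, 2 and 3. The lowest double-positive value was above the highest single-positive value, and the means were 386 ± 176 and 2246 ± 608 (SD, n = 3 each). The ratio of means was 5.81, with a log2 fold change of 2.52 (SE 0.41 in limma, adjusted p = 0.00489).

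Chst8 transfers sulfate to the 4 position of N-acetylgalactosamine, chiefly on the N-linked glycans of glycoprotein hormones rather than on proteoglycan chains. Its signals were 56.7, 75.9 and 121 in single-positive arrays and 855, 429.6 and 516 in double-positive arrays. All single-positive values were low and all double-positive values were higher, a log2 fold change of 2.49 (SE 0.43 in limma, adjusted p = 0.00672). The single-positive mean was 6.74 on the log2 scale, under the filter level of 6.82, so Chst8 passed the filter only through the double-positive arrays. The size of this rise depends on the offset, and with the filter at the 60th percentile Chst8 was not tested.

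Chst2 transfers sulfate to the 6 position of N-acetylglucosamine, as in keratan sulfate and the ligands of L-selectin. Signals were 241, 452 and 196 in the single-positive and 1473, 1188 and 2269.9 in the double-positive arrays. The groups were well apart, with means of 296 ± 137 and 1643 ± 561 (SD, n = 3 each) and a log2 fold change of 2.41 (SE 0.41 in limma, adjusted p = 0.00643). A dimmer probe set of Chst2 had 1.01 (adjusted p = 0.417 over all probe sets), and when the probe sets of the gene were averaged the fold change was 1.26 with an adjusted p of 0.0651, which did not pass.

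Chst11 is a chondroitin 4-O-sulfotransferase, and among the members past the threshold it is the enzyme that acts on chondroitin chains. It gave 2038, 2152 and 1790.3 in single-positive and 3877, 4014 and 5359.6 in double-positive arrays. Double-positive values were all higher, with a ratio of means of 2.22 and a log2 fold change of 1.13 (SE 0.25 in limma, adjusted p = 0.0242). The call was lost when single-positive array 1, 2 or 3, or array 1 of the double-positive group, was left out (adjusted p of 0.0704, 0.0678, 0.108 and 0.0547), after median centring (adjusted p = 0.0618) and when averaged with a probe set that lay below the filter (adjusted p = 0.147).

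Sdc2 encodes syndecan 2, a transmembrane heparan sulfate proteoglycan typical of mesenchymal cells. On its brightest probe set the signal was 12542, 18927 and 16265 in single-positive arrays and 39534, 39256 and 30381 in double-positive arrays. The groups did not overlap, the means were 15911 ± 3207 and 36390.5 ± 5206 (SD, n = 3 each), and the log2 fold change was 1.20 (SE 0.19 in limma, adjusted p = 0.00415). Of its 4 probe sets 3 were tested, and all 3 passed when every probe set was tested on its own (log2 fold changes of 1.01, 1.20 and 1.70, adjusted p of 0.0319, 0.00867 and 0.0311).

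Hs6st2 adds sulfate to the 6 position of glucosamine in heparan sulfate. Signals were 1458, 2091 and 2478 in single-positive and 470.5, 536 and 509.8 in double-positive arrays. Every double-positive value was lower, and they varied little among themselves (505 ± 32.9 against 2009 ± 515, SD, n = 3 each). The ratio of means was 3.97 in favour of the single-positive arrays, and the log2 fold change was -1.91 (SE 0.32 in limma, adjusted p = 0.0061). The other 3 probe sets of Hs6st2 were below the filter, and averaged with them the gene was not tested. When any single array was left out, Hs3st1, Chst2, Sdc2 and Hs6st2 each passed in 6 of 6 fits. These fits kept the offset, filter and probe sets of all 6 arrays. Chst8, let through the filter by its double-positive arrays, therefore stayed in each of them, and its passing there is no support.

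**Figure D3:**
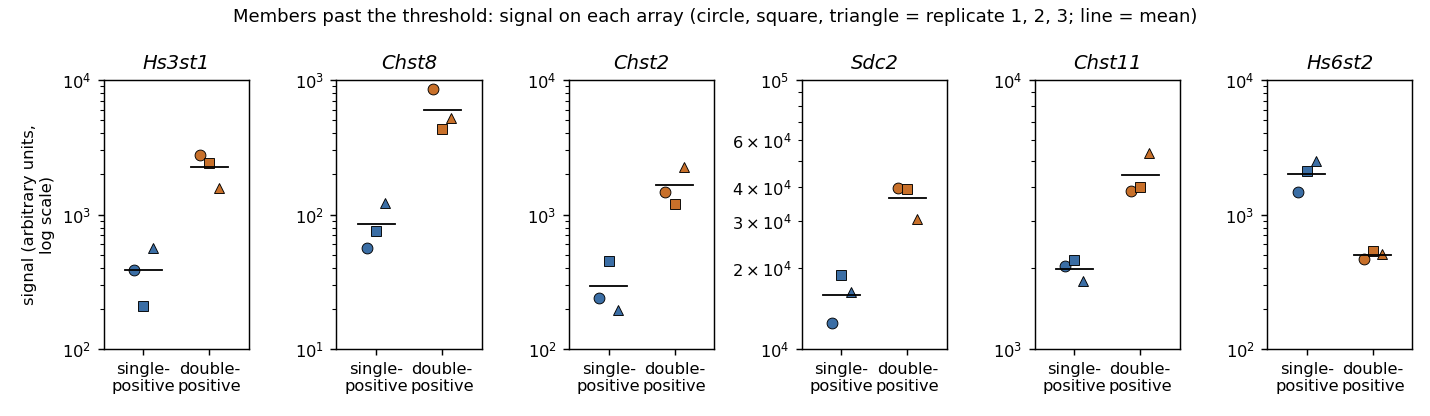
Signal on each array (arbitrary units, log axis) of the 6 members past the threshold, with circles, squares and triangles for replicates 1, 2 and 3 and a line at the group mean. In each panel the 3 single-positive and the 3 double-positive arrays do not overlap, and only Hs6st2 is lower in the double-positive arrays.

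Promoter windows are shown for members past the threshold, since these genes changed between the same populations, to set their start regions side by side. RefSeq windows of build GRCm38.p6 were matched by symbol for 5 of the 6 genes, with none for Sdc2. The 250 bases before each start were read 5′ to 3′ on the gene's strand. Capitals mark the GC box (GGGCGG or CCGCCC) and the TATA motif (TATAAA or TTTATA). The windows are chr7:34812712-34812961 (minus strand) for Chst8, chr10:82985247-82985496 (plus strand) for Chst11, chr9:95407271-95407520 (minus strand) for Chst2, chr5:39644632-39644881 (minus strand) for Hs3st1 and chrX:51681603-51681852 (minus strand) for the farther upstream of the listed starts of Hs6st2.
Chst8: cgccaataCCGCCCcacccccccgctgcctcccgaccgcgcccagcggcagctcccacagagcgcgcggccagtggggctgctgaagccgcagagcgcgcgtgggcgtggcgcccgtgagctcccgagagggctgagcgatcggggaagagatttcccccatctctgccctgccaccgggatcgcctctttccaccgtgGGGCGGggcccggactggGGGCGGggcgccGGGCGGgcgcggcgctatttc
Chst11: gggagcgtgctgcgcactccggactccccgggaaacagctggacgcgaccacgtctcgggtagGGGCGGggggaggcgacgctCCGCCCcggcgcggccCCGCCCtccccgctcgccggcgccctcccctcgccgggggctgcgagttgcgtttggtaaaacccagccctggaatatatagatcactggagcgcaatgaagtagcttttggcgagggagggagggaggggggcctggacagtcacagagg
Chst2: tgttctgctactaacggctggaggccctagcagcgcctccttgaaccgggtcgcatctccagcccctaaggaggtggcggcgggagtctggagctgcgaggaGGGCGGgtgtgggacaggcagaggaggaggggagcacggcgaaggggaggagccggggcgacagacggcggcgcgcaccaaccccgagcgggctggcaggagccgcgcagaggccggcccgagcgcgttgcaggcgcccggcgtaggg
Hs3st1: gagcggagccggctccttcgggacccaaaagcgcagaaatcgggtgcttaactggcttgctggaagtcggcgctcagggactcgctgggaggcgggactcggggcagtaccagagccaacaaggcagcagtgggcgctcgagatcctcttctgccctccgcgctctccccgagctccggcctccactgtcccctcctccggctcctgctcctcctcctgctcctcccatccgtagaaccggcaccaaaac
Hs6st2: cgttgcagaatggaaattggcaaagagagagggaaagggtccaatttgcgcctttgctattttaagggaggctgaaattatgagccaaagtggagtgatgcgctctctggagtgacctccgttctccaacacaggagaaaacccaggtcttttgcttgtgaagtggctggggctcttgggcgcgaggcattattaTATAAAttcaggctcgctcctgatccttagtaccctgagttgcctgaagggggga

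The windows of the rising genes other than Sdc2 are rich in G and C, 75.6% for Chst8, 72.8% for Chst2, 70.0% for Chst11 and 66.0% for Hs3st1. The Hs6st2 window shown is less so and has the single TATA motif among these sequences, but the window of the other listed start of Hs6st2 has 72.0% and no TATA motif, so the difference depends on which start is used. GC boxes numbered 4 in the Chst8 window, 3 in that of Chst11, 1 in that of Chst2 and 0 in those of Hs3st1 and Hs6st2, so they were not shared by all of the rising genes. A GC box was present in 33 of 48 windows of 43 member genes (68.8%) and in 32.7% of all 32851 windows, whose median G and C content was 64.4% and 52.4%. TATA motifs were in 6.25% of member windows and 12.4% of all windows. The CArG box, on both strands, and the GLI motif GACCACCCA or TGGGTGGTC were in 0 of the 48 member windows and in 1.47% and 0.225% of all windows. Such matches describe letters in these windows and are not binding sites.

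Small leucine-rich core proteins of the matrix were bright on every array. All 5 were tested with limma and 0 passed, with log2 fold changes from -0.31 to 0.36. An unadjusted p under 0.05 was seen for 1, a count with no share of all genes beside it. Dcn (decorin, which binds collagen fibrils) had 67362, 67234 and 59632 in single-positive and 82594, 75056 and 50405 in double-positive arrays. The highest and lowest values were both double-positive, and the log2 fold change was 0.07 with a 95% interval of -0.32 to 0.46. Lum (lumican, a regulator of fibril width) had 52289, 57635 and 46989 against 66010.0, 60535 and 42504, an interval of -0.29 to 0.47. Bgn (biglycan) overlapped as fully, and its 3 probe sets had log2 fold changes of -0.01, 0.01 and 0.05.

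Ogn (osteoglycin) and Fmod (fibromodulin) were separated between the groups on their brightest probe sets without passing. Ogn gave 52106, 57092 and 48416 in single-positive and 43828, 37644 and 45353 in double-positive arrays, with a log2 fold change of -0.31 (adjusted p = 0.237). Fmod gave 28432, 26552 and 26769 against 31282, 44567 and 30949, with 0.36 (adjusted p = 0.293). All 6 Fmod probe sets had a positive and both Ogn probe sets a negative fold change, and none of them passed. On some dimmer Fmod probe sets the groups overlapped, as at 8768 to 9796 in single-positive and 6540 to 16814 in double-positive arrays. Dcn, Lum, Bgn and Ogn ranked between 5 and 392 of 45037 probe sets on each array, so they were among the brightest features measured, and whether their differences were compressed there was not tested.

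Among large and basement membrane proteoglycans 0 of 4 passed in limma, and 0 had an unadjusted p under 0.05. Vcan (versican, a chondroitin sulfate proteoglycan that binds hyaluronan) had 31459, 36344 and 26883 in single-positive and 37136, 33546 and 36452 in double-positive arrays. These values overlapped, with a log2 fold change of 0.19 (95% interval -0.14 to 0.52), and the 4 tested of its 8 probe sets were all positive, from 0.19 to 0.83. Agrn (agrin) had -0.20 (-0.68 to 0.28), and Hspg2 (perlecan) had 0.18 with a wider interval of -0.61 to 0.97. Acan (aggrecan), the cartilage proteoglycan, was dim, at 150.4 to 245 in single-positive and 97.1 to 181 in double-positive arrays, and a difference of 2-fold lay within its interval of -1.26 to 0.60.

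Membrane proteoglycans included Sdc2 as the only member of 10 tested that passed. The other syndecans had log2 fold changes of 0.11 (Sdc1), -0.25 (Sdc3) and -0.58 (Sdc4). Sdc1, the syndecan of epithelia, gave 8568, 5318 and 9005 in single-positive and 7908, 7608 and 8537 in double-positive arrays. Those values overlapped and its 4 probe sets had fold changes from -0.04 to 0.21, while the summed signal of the urothelial markers was lower in every double-positive array. Sdc3 was slightly lower in all double-positive arrays, at 2664 to 2938 against 3151 to 3522 (adjusted p = 0.681).

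Glypicans, which are bound to the membrane by a lipid anchor, had 0 of 5 tested members past the threshold in limma, and 1 (Gpc6) had an unadjusted p under 0.05. Gpc6 gave 19589, 16693 and 18666 in single-positive and 27561, 25075 and 21783 in double-positive arrays. No values overlapped on this probe set, and the log2 fold change was 0.43 (95% interval 0.08 to 0.78, limma adjusted p = 0.167). All 5 Gpc6 probe sets were positive, but on the dimmer ones the groups overlapped and the 95% intervals spanned 0. With array weights Gpc6 passed (0.51, limma adjusted p = 0.0493). Gpc1 gave 958, 2321 and 2738 against 4053, 6741 and 2104, with a log2 fold change of 1.07 (adjusted p = 0.285), and double-positive array 3 lay inside the single-positive range. Gpc3, an X-linked regulator of Hedgehog signals, was scattered, with 2867, 6193 and 6521 against 8480.5, 11454 and 1365, and its interval of -1.43 to 1.57 leaves its difference unresolved. Gpc4 had -0.08 (-0.41 to 0.25), and the dim Gpc2 had 0.13 (-1.12 to 1.38).

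Cspg4 (NG2), a chondroitin sulfate proteoglycan of pericytes and progenitor cells, gave 4369.5, 2157 and 3027 in single-positive and 2062, 1881 and 1976 in double-positive arrays. Its double-positive values were all lower on this probe set (log2 fold change -0.63, limma adjusted p = 0.327), and on its other probe set the fold change was 0.07. The pericyte and vascular mural markers stood beside it with 3 of 8 lower past the threshold and sums of 24616 to 45754 in double-positive against 54445 to 60276 in single-positive arrays, and their part in the Cspg4 values was not tested.

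Hyaluronan synthases had 0 of 3 members past the threshold in limma on their brightest probe sets, and 1 (Has1) at an unadjusted p under 0.05. Has1 gave 6533, 4553 and 6094 in single-positive and 10441, 9416 and 6727 in double-positive arrays. Double-positive values were higher without overlap, by 0.62 on the log2 scale (95% interval 0.08 to 1.16, limma adjusted p = 0.205). Has2, the main synthase of embryonic mesenchyme, gave 3876, 4851 and 2157 against 5758, 2632 and 4086, which overlapped, with 0.20 on that probe set. On the dimmer Has2 probe set double-positive values were higher without overlap, by 0.95 (95% interval 0.20 to 1.70, limma adjusted p = 0.204 over all probe sets). Has3 ranged from 4.52 to 349 within the double-positive arrays alone, and its difference was not measurable here (interval -2.53 to 1.46).

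Enzymes that build the heparan sulfate backbone had 0 of 5 members past the threshold in limma, and 1 (Ext2) at an unadjusted p under 0.05. Ext2, which forms the polymerase together with Ext1, gave 7431, 5592 and 4398 in single-positive and 8537, 11476 and 7267 in double-positive arrays. The groups overlapped by 1 array on each side, with a log2 fold change of 0.65 (limma adjusted p = 0.215). Its partner Ext1 had -0.18 (95% interval -0.94 to 0.58). Extl2 and Extl3, related transferases that act early on the chain, had 0.14 (-0.30 to 0.58) and -0.12 (-0.68 to 0.44), and Extl1 was dim with -0.09 (-1.13 to 0.94).

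Of 8 tested heparan sulfate sulfotransferases, Hs3st1 rose, Hs6st2 fell and 6 did not pass. Ndst1 and Hs3st5 had no probe set with a single platform symbol and were not examined. Relatives that add sulfate at the same position did not pass with them. Hs6st1 gave 595, 925 and 1076 in single-positive and 1178, 1194 and 392 in double-positive arrays, which overlapped, with a log2 fold change of -0.03 (95% interval -1.06 to 1.01). Hs3st2, Hs3st3b1 and Hs3st6 had -0.07, -0.17 and 0.38, each on a dim signal of at most 605. Other tested probe sets of Hs3st3b1 had 0.23 and 1.06 (95% interval -0.10 to 2.23), and that of Hs3st2 had 0.11, without passing. Hs2st1, the single 2-O-sulfotransferase, had 0.04 (-0.45 to 0.54) on its brightest probe set and -0.55, -0.49 and 0.59 on the others. Ndst2, which removes acetyl groups and adds N-sulfate and serves heparin synthesis in mast cells, had 1133 to 1428 in single-positive and 1216 to 1339 in double-positive arrays, with 0.02 (-0.61 to 0.64).

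In the Chst family Chst2, Chst8 and Chst11 rose out of 10 tested, 0 fell and 7 did not pass. Further enzymes of chondroitin and dermatan sulfate did not pass. Chst14, the dermatan 4-O-sulfotransferase, gave 7116, 4832 and 4854 in single-positive and 9576, 10717 and 6417 in double-positive arrays. Double-positive array 3 lay inside the single-positive range, and the log2 fold change was 0.66 (limma adjusted p = 0.212). Chst15, which adds a further sulfate to chondroitin 4-sulfate, gave 1827, 1614 and 1443 against 3673, 3392 and 1631, with 0.74 (adjusted p = 0.302). Here too double-positive array 3 was low, and without it Chst15 passed (1.11, adjusted p = 0.038). Chst12, a chondroitin 4-O-sulfotransferase like Chst11, had 0.37 (-0.56 to 1.31), and Chst7 and Chst1 had 0.02 and -0.36. Chst5 and Chst10 were dim and overlapped between the groups, with 0.43 (-0.62 to 1.49) and -0.023 (-1.17 to 1.12).

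Several members had more than 1 probe set. Of the 82 member probe sets tested on their own, 7 were higher and 1 was lower past the threshold, beside 3.77% of all 23500 probe sets tested. They were 3 of Sdc2 and 1 each of Hs3st1, Chst2, Chst8 and Chst11, and the lower one was that of Hs6st2. Of the 21 members with at least 2 tested probe sets, 12 had all of them on the same side of 0. The count of 8 depended on single arrays, as leaving out array 1 or array 2 of the single-positive group left 3, leaving out array 3 of that group or array 1 of the double-positive group left 4, and the fit with no variance trend called 4.

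**Figure D4:**
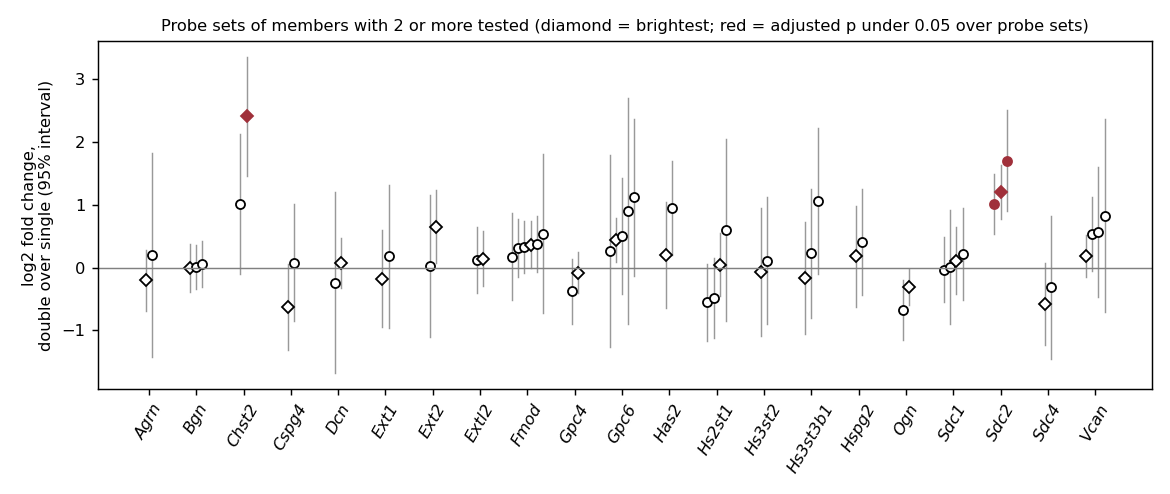
Log2 fold change with 95% interval of each tested probe set of the 21 members that had 2 or more, where diamonds mark the brightest and red marks an adjusted p under 0.05 over all probe sets. The 3 probe sets of Sdc2 are all red and above 1, the dimmer probe set of Chst2 is open at 1.01, and those of Bgn and Extl2 lie together near 0.

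Other genes of the pathway, on lists of linker and chain synthesis, sulfate and sugar supply, chain editing, hyaluronan handling, lysosomal breakdown and further core proteins, numbered 78, of which 69 were tested. In the double-positive arrays 2 rose, 7 fell and 60 did not pass (9 of 69 past the threshold, beside 6.37% of all genes), and their median log2 fold change was 0.02. The 7 became 4 without single-positive array 1, 2 without single-positive array 3 and 3 after median centring, and the 2 became 4 without double-positive array 3. Precursor supply and lysosomal breakdown had 0 of 11 and 0 of 10 genes past the threshold in limma, with 2 at an unadjusted p under 0.05 in each, and linker synthesis had 0 of 5 by either measure.

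Heparanases went opposite ways. Hpse, which cuts heparan sulfate chains in the matrix, gave 3272, 1645 and 2842 in single-positive and 8744, 6644 and 8594 in double-positive arrays, a log2 fold change of 1.67 (SE 0.29 in limma, adjusted p = 0.00723). Hpse2, a relative without that activity whose loss in people causes a congenital bladder disorder, gave 3562, 3588 and 3732 against 1957, 1298 and 1609, with -1.17 (SE 0.26 in limma, adjusted p = 0.0249). Neither gene's groups overlapped. Hpse passed in 6 of 6 fits that left out an array, while Hpse2 passed in 2 of 6, with an adjusted p of 0.082, 0.0904 and 0.11 without single-positive array 1, 2 and 3 and 0.0582 without double-positive array 2. The Hpse2 call was also lost after median centring, so it was lost in 5 of 17 alternative settings.

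Hapln3, which links hyaluronan to proteoglycans, rose from 261, 199.7 and 495 to 1175, 2137 and 1327 (log2 fold change 2.24, SE 0.42 in limma, adjusted p = 0.0103). Csgalnact1, which starts chondroitin chains, fell from 5219, 6479 and 6628 to 3332, 1767 and 2318 (-1.34, SE 0.28 in limma, adjusted p = 0.0178). Its call was lost without single-positive array 2 or 3 (adjusted p of 0.0818 and 0.0911) and after median centring (0.06). Chst11, which acts later on the same chains, moved the other way. Aspn (asporin), a leucine-rich relative of decorin, fell from 13256, 8949 and 10689.8 to 4947, 2991 and 5603 (-1.31, SE 0.27 in limma, adjusted p = 0.0179). It did not pass without single-positive array 1 or 3 (adjusted p of 0.0769 and 0.0745), after median centring (0.0913), with no variance trend (0.0656) or averaged over probe sets (0.0769). Cemip2, a cell surface protein tied to hyaluronan breakdown, fell from 1893, 1021 and 1717 to 358, 585 and 633 (adjusted p = 0.0406). Its other probe set gave -0.23, and it passed in 2 of 6 fits that left out an array (without array 2 of the single-positive and array 3 of the double-positive group). The Cemip2 call was lost in 8 of 17 alternative settings, median centring among them. Over these 17 settings its log2 fold change ranged from -1.77 to -0.20, with a limma adjusted p of up to 0.853.

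Stab1 (a scavenger receptor for hyaluronan on macrophages and sinusoidal endothelium), Srgn (serglycin, the granule proteoglycan of blood cells) and Esm1 (endocan, an endothelial proteoglycan) had the largest falls of these lists. Stab1 gave 6168, 2855 and 3644 in single-positive and 491, 747 and 513 in double-positive arrays (log2 fold change -2.75, SE 0.35 in limma, adjusted p = 0.00152). Srgn gave 1881, 2596 and 3107 against 191, 11.8 and 423 (-4.03, SE 0.75 in limma, adjusted p = 0.0104). Its value on double-positive array 2 lay under the offset of 25.04, so the size of the Srgn fall depends on the offset. Esm1 gave 226, 515 and 338 against 12, 2.47 and 15.8 (-3.40, SE 0.45 in limma, adjusted p = 0.00173), with double-positive values below the filter level, so that the size of this fall depends on the offset (-2.08 with an offset at the 40th percentile). Its mean, 6.817 against a filter level of 6.815, passed the filter only through the single-positive arrays, and it was below the filter and not tested after quantile normalization, with an offset at the 5th percentile and with the filter at the 60th percentile. Without it the count of falls is 6. Leukocyte markers were lower past the threshold for 15 of 16 and endothelial markers for 8 of 15 in the same arrays, and their part in these 3 falls was not tested. Srgn missed the threshold without single-positive array 3 (adjusted p = 0.0515), and its log2 fold change was -3.01 without double-positive array 2 and -4.81 without double-positive array 3.

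**Figure D5:**
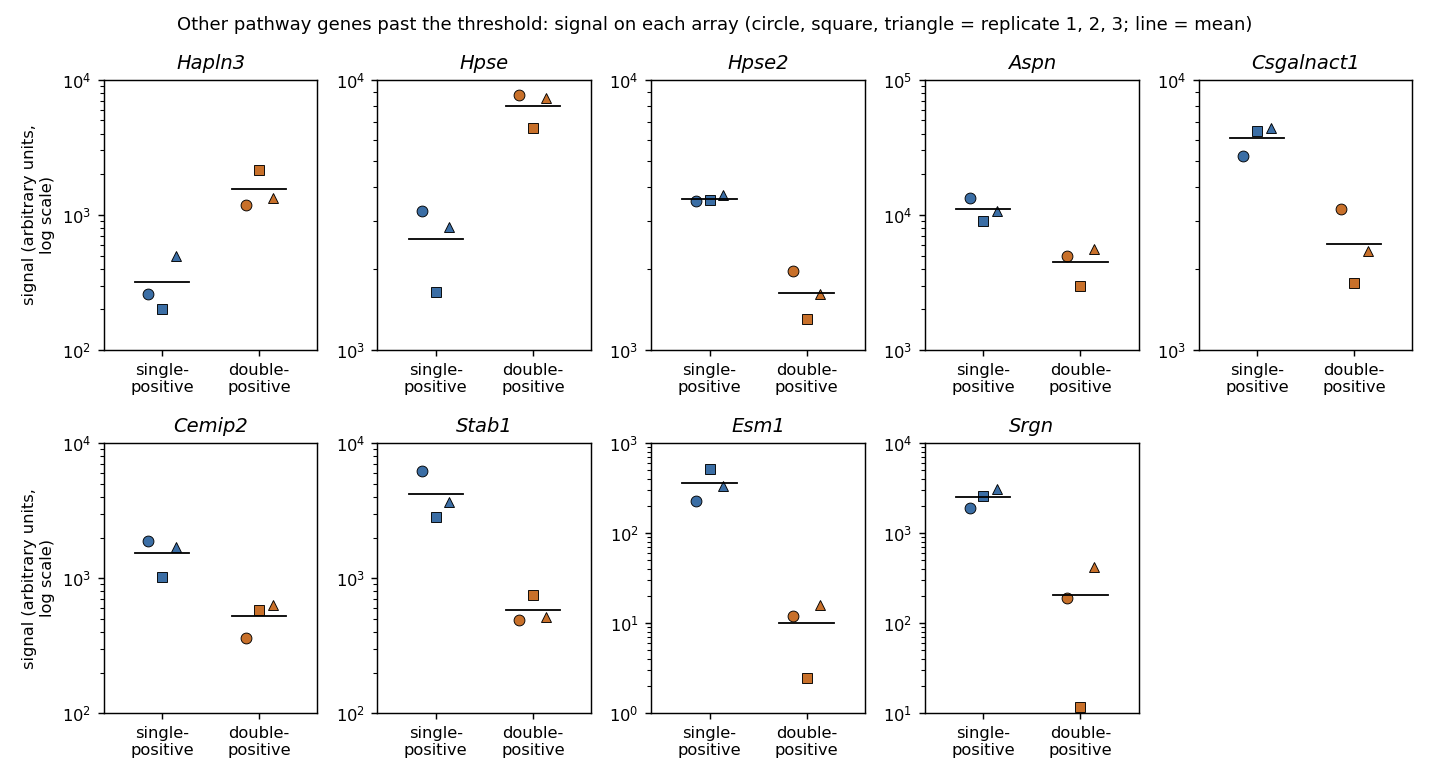
Signal on each array (arbitrary units, log axis) of the 9 other pathway genes past the threshold, with circles, squares and triangles for replicates 1, 2 and 3 and a line at the group mean. Hapln3 and Hpse are higher and the other 7 lower in the double-positive arrays, and Srgn and Esm1 are lowest in double-positive array 2.

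Precision differed widely among the members that did not pass. For 18 of these 39 the 95% interval of the brightest probe set lay within 1 on the log2 scale on both sides. A 2-fold difference was outside these intervals, and for the remaining 21 the interval reached beyond. The first set holds the matrix core proteins other than Acan, and the second holds many of the dim sulfotransferases. This limit holds for the brightest probe sets alone. Tested over all probe sets, dimmer ones of Ogn, Vcan and Hspg2 had intervals of -1.15 to -0.19, -0.05 to 1.12 and -0.43 to 1.24. Dimmer ones of Dcn, Fmod and Agrn also reached beyond 1 in size, those of Bgn did not, and Lum had no other.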

How the data were processed

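RNA of 6 sorted bladder cell samples, amplified in 2 rounds, was hybridised to Affymetrix MOE430 arrays per the labels. The authors deposited intensities on a linear scale, 1 per probe set. GCOS is the tool named in the submitters' processing notes, while the sources used here give no algorithm or version. The 2% trimmed mean was 1500.01 on each array, which means that intensities were scaled before they were deposited and that differences in total RNA cannot be seen. Amplification from the 3′ end can weaken probe sets far from it. No detection calls were used, and the number of arrays limits the precision.

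The platform annotation named the probe sets (34945 with 1 symbol, 932 with several and 9160 with none, besides 64 controls), and all 112 member probe sets matched a RefSeq gene of GRCm38.p6. The analysis used log2(signal + 25.04), where 25.04 is the 20th percentile of signals, and no rescaling, since array medians differed 1.36-fold. Each gene was represented by its brightest probe set and kept when this exceeded the 40th percentile over probe sets (6.82). A two-sided limma test (limma 3.58.1, R 4.3.3, lmFit and eBayes with trend) compared the groups, adjusted by Benjamini-Hochberg over 13464 genes, and a second one ran over 23500 probe sets. The procedure was tested on simulated data.

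The members, lists and tests were chosen with earlier results of these data known. Named were members past the threshold by either test, the 3 of smallest p of each of 7 roles, and other pathway genes past the threshold, besides the 2 of smallest p of each marker list where given. Further members were named after their values were seen. GC boxes and TATA motifs were chosen after seeing the data. Alternatives covered scaling, offset, filter, probe set choice, variance trend, array weights, a replicate block and the omission of single arrays. No 2 arrays held more than 13 identical values.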

Additional observations from a re-analysis of the deposited data

How the results depend on the processing

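Over all 45 tested members and the 9 other pathway genes named, direction and side of the threshold were kept in 810 combinations of gene and setting, 29 lost the threshold, 2 gained it (Gpc6 with array weights, Chst15 without double-positive array 3) and 63 reversed. The reversals are of members that did not pass. After quantile normalization the reversed values were -0.068 (Lum), -0.090 (Dcn), 0.039 (Hs3st2), 0.053 (Hs6st1) and 0.074 (Chst10). After median centring the reversed values were 0.046 (Bgn), 0.027 (Hs6st1) and 0.032 (Chst10). With an offset at the 40th percentile the reversed value was 0.015 (Chst10). With array weights the reversed values were 0.035 (Bgn), -0.0063 (Ndst2), 0.038 (Hs3st2), 0.18 (Hs6st1) and -0.10 (Chst7). Averaged over probe sets the reversed values were 0.0016 (Ext1), -0.086 (Dcn), 0.018 (Bgn), 0.099 (Extl3), -0.10 (Hs2st1) and 0.12 (Hs3st3b1). With a probe set preferred whose name does not mark it as shared between transcripts, the reversed values were 0.051 (Bgn), -0.036 (Sdc1) and 0.11 (Hs3st2). With arrays left out in turn the sign changed within the ranges of Lum (-0.039 to 0.28), Has3 (-1.19 to 0.64), Has2 (-0.13 to 0.49), Ext1 (-0.49 to 0.078), Hs3st6 (-0.096 to 0.92), Dcn (-0.072 to 0.28), Bgn (-0.16 to 0.11), Hspg2 (-0.031 to 0.49), Sdc1 (-0.13 to 0.25), Gpc2 (-0.41 to 0.60), Gpc3 (-0.51 to 1.01), Extl1 (-0.49 to 0.20), Extl3 (-0.30 to 0.046), Ndst2 (-0.069 to 0.094), Hs2st1 (-0.18 to 0.22), Hs3st2 (-0.33 to 0.31), Hs6st1 (-0.29 to 0.48), Chst7 (-0.19 to 0.32), Chst10 (-0.57 to 0.40) and Chst12 (-0.019 to 0.60). Averaging over probe sets left 3 member genes past the threshold, 3 higher and 0 lower (limma). Median centring gave 5 other pathway genes, 3 of them lower. No variance trend gave 4 member probe sets. Array weights gave 1345 genes in all, 435 higher and 910 lower, and 4 other pathway genes higher. With single arrays left out, member genes ranged from 5 to 7 (4 to 6 higher, 1 lower), member probe sets from 3 to 7, other pathway genes from 4 to 12 (2 to 4 higher, 2 to 8 lower) and all genes from 474 to 1077 (160 to 349 higher, 314 to 728 lower). Same-numbered arrays had deviation correlations of 0.190, 0.0511 and 0.0242, and single-positive array 3 correlated best with another number (0.0931). With 3 arrays per group these values cannot tell whether same-numbered samples were paired, and the main fit did not pair them. With the replicate block 6 member genes passed, all 6 those reported, with 1014 genes in all and 4 other pathway genes higher. The cause of these shifts was not tested. Dim members lie near the offset, where signal over background limits what can be seen.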
